A study of Mus musculus with 36 samples.

Results

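The replication-dependent histone genes are the 67 protein-coding genes, of 22367 in the GENCODE vM1 annotation of the mouse genome (mm9), whose symbols begin with Hist1h, Hist2h, Hist3h or Hist4h. Membership rests on the symbol alone and uses no measured value, though the genes were chosen with earlier results of these data known. Binding was read from 9 lists of peaks called from chromatin immunoprecipitation followed by sequencing (ChIP-seq), and a gene was counted for a list when the midpoint of at least 1 peak lay within 1 kb of its start site. Mouse embryonic stem cells (ESCs) were wild-type R1 cells kept in Serum/LIF +2i, that is, serum, the cytokine LIF and a pair of kinase inhibitors that hold cells in the naive state. Neural progenitor cells (NPCs) were derived in vitro from the same wild-type R1 line and kept in NPC medium. MBD3, a protein with a methyl-CpG-binding domain, and the helicase CHD4, which both belong to the nucleosome remodeling and deacetylase (NuRD) assembly, were profiled as 2 replicates in ESCs and 1 list in NPCs. SIN3A, the scaffold of another deacetylase complex, was profiled in wild-type ESCs without and with spike-in chromatin, an added foreign chromatin that serves as a reference. ZFP296, a zinc finger protein of stem cells, was precipitated through its green fluorescent protein (GFP) tag from ESCs labelled ZFP296-BAC R1, kept in Serum/LIF +2i as well. The samples came from an ESC line and its in vitro derivatives, and peak lists hold no expression values, so the identity of the cells was not checked here.

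The lists held between 2304 peaks (NPC MBD3) and 29974 peaks (ESC CHD4 replicate 2), and their length sets how many genes can be counted. Their values are −log10 significances of the peak caller and were not compared between lists. The peak names give a calling threshold of 0.0001 for SIN3A without spike-in and of 0.001 for the other 8 lists, and every one of the 29974 peak names in the second ESC CHD4 list mentions Zfp219 and BAC, although that sample's label is wild type. A gene without a peak is a gene where none passed the threshold, which is not an absence of binding. No test was made: each group has 1 or 2 lists, and genes of 1 cluster that share promoters and sequence are not replicates.

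Replication-dependent histone genes supply the core histones H2A, H2B, H3 and H4 and the linker histone H1 for new chromatin, and they are switched on as cells enter S phase. Their transcripts usually end in a conserved stem-loop in place of a poly(A) tail, and their shared activator NPAT sits on the clusters in nuclear histone locus bodies. Promoters of each histone type carry elements of their own: HINFP acts on H4 genes, and the POU factor OCT1 acts with a coactivator on the octamer of H2B genes. Fast-cycling ESCs and proliferating NPCs both depend on this supply.

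In mm9 the genes fell into 6 blocks when starts more than 500 kb apart were separated. On chromosome 13, Hist1 block A ran from the start at 21808012 to that at 22135083 and held 23 genes, and block B ran from 23622919 to 24026331 and held 31. Hist1h2al lay alone at 51298434 of the same chromosome. The Hist2 cluster on chromosome 3 (96023839 to 96073644) held 9 genes, the Hist3 cluster on chromosome 11 held 2, and Hist4h4 lay alone on chromosome 6 at 136752900. By type there were 6 H1, 19 H2A, 18 H2B, 11 H3 and 13 H4 genes. When starts within 1 kb were merged, 52 promoters remained. A stem-loop of the histone type was found in the last exon or the 200 bases after it for 57 of the 67 genes, most often with the letters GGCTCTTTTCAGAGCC (35 genes).

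NuRD subunits and ZFP296 had almost no peaks at histone gene starts. MBD3 had a peak at 0 of 67 histone genes in ESC replicate 1, where 1.87% of all protein-coding genes had one, and at 1 gene in replicate 2, where 2.45% had one. CHD4 had a peak at 0 of 67 genes in ESC replicate 1 against 7.14% of all genes, and at 2 genes in replicate 2 (2.99%) against 19.8%. No histone gene had a peak in both replicates of either subunit, against 0.635% of all genes for MBD3 and 5.46% for CHD4. GFP-ZFP296 had a peak at 0 of 67 genes against 2.34% of all genes. In NPCs, MBD3 had a peak at 0 of 67 genes against 1.95%, and CHD4 at 1 gene (1.49%) against 11.1%. For MBD3 and ZFP296 the background share corresponds to 1.25 to 1.64 of 67 genes, so the counts of 0 and 1 lay near it, while for CHD4 it corresponds to 4.78 genes in ESC replicate 1, 13.3 in replicate 2 and 7.40 in NPCs.

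SIN3A was the factor with peaks at many histone genes. Without spike-in it had a peak at 21 of 67 genes (31.3%) from 18 distinct peaks, where 38.7% of all genes had one. With spike-in it had a peak at 16 genes (23.9%) from 16 peaks, where 31.5% of all genes had one. Both preparations had a peak at 11 genes (16.4%) against 28.1% of all genes, and at least 1 preparation at 26 genes (38.8%) against 42.1%. The shares of histone genes lay below those of all genes in each of these counts. Further on, the counts are limited to genes whose start sequence is at least 80% unique in the genome. There the histone share was higher without spike-in (51.6% against 43%) and in at least 1 preparation (61.3% against 46.7%). With spike-in it was about equal (35.5% against 35.1%), and in both it stayed lower (25.8% against 31.4%). A single peak could count for several histone genes, and the shares of all genes were not recounted with 1 gene per peak.

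**Figure D1:**
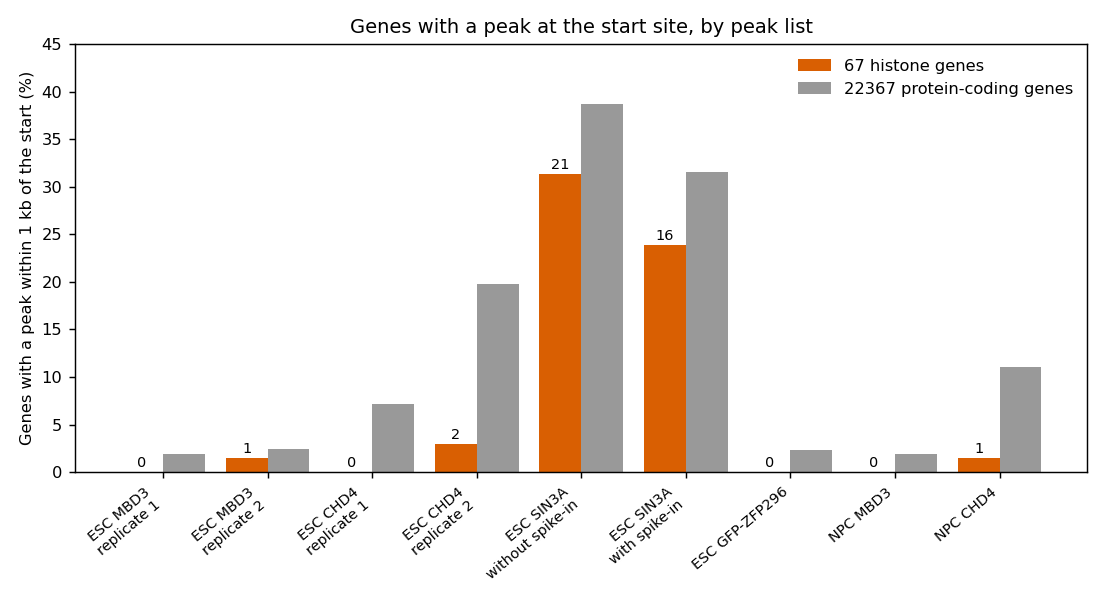
Percent of genes with a peak midpoint within 1 kb of the start (vertical axis) in each of the 9 peak lists, for the 67 histone genes (orange, with the number of genes above each bar) and for all 22367 protein-coding genes (grey). The orange bars reach 31.3% and 23.9% for the SIN3A preparations and stay at or below 2.99% in the other 7 lists.

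Counted over lists, 41 of the 67 histone genes had a peak in no list, 14 in 1 list, 9 in 2 lists and 3 in 3 lists. The same count was not made over all genes, so 41 of 67 has no background share. For SIN3A in at least 1 preparation, 38.8% of histone genes and 42.1% of all genes had a peak. The genes with 3 lists were Hist4h4, the H4 gene that lies outside the large clusters, Hist1h1c, a linker histone gene of block B, and Hist3h2a, an H2A gene of the Hist3 cluster. The 9 genes with 2 lists were Hist1h4a, Hist1h3a, Hist1h4k, Hist1h4c, Hist1h4i, Hist1h3e, Hist1h1e, Hist1h4f and Hist1h3f, each through both SIN3A preparations. Of these 12 genes, 6 encode H4, beside 13 of the 67. All of the 12 but Hist3h2a had a peak in both SIN3A preparations, so this largely repeats the split of SIN3A peaks by type given below.

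**Figure D2:**
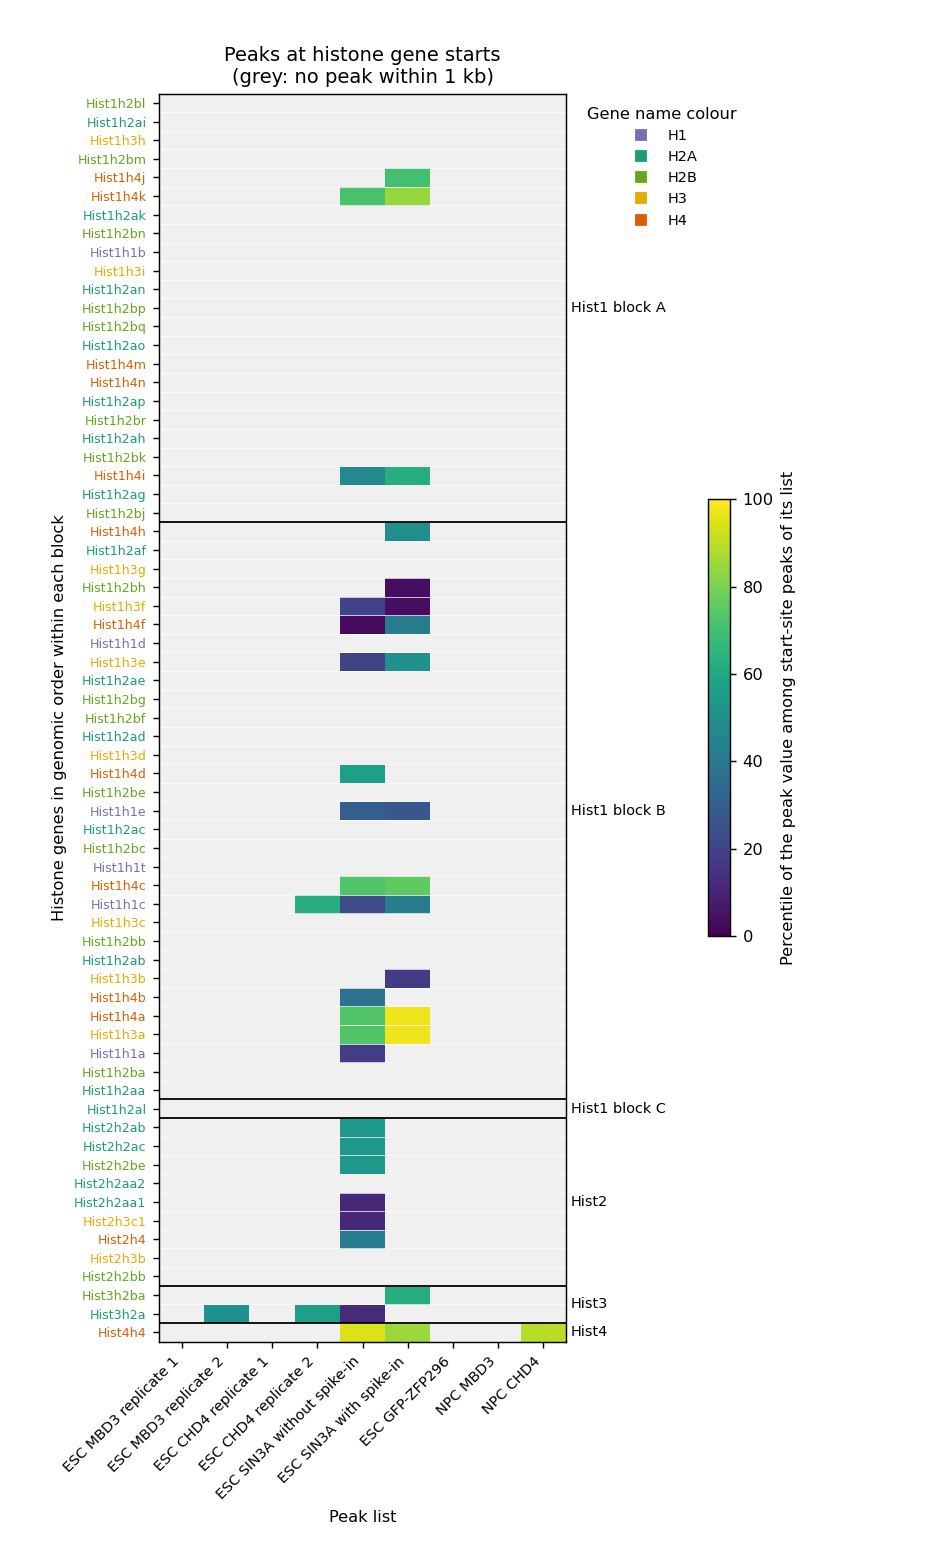
Peaks at the 67 histone genes (rows, in genomic order within each block, names coloured by histone type) in the 9 lists (columns). Colour gives the percentile (0 to 100) of the highest peak value within 1 kb among all start-site peaks of that list, and grey means no peak. Coloured cells stand almost only in the SIN3A columns, and 41 rows are wholly grey.

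NuRD subunits had 4 peaks at histone genes, at the 3 genes with the most lists. At Hist3h2a, MBD3 replicate 2 had a peak of 135 bp at chr11:58768388-58768522, with its midpoint 268 bp downstream of the start and a value of 8.15, and CHD4 replicate 2 had one of 166 bp at chr11:58768570-58768735, 465 bp downstream, with a value of 8.63. SIN3A without spike-in also had a peak there (chr11:58768287-58768647, value 7.44), and none of the other 6 lists did. The annotated start of Trim17, a gene of the tripartite motif family, coincides with that of Hist3h2a, so these peaks cannot be assigned to either gene. At Hist1h1c, CHD4 replicate 2 had a peak of 132 bp at chr13:23831236-23831367, 625 bp downstream of the start, with a value of 9.33. The MBD3 peak and both CHD4 peaks came from replicate 2 lists, and replicate 1 had no peak within 1 kb of these starts.

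The remaining NuRD peak was that of CHD4 in NPCs at Hist4h4. It spanned 393 bp at chr6:136753522-136753914, its midpoint lay 818 bp upstream of the Hist4h4 start, and its value of 16.02 stood at the percentile of 89.1 among start-site peaks in that list. The next nearest start was that of H2afj, a gene for an H2A variant, at 3051 bp. Neither ESC CHD4 list had a peak within 1 kb of Hist4h4. ESC and NPC lists differ in length and cell state together and NPCs have 1 list, so a difference between the cell states was not tested.

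The promoters of these 3 genes are shown because the genes had a peak within 1 kb in the most lists. The stretch shown for Hist4h4 overlaps its SIN3A peak without spike-in, and those for Hist1h1c and Hist3h2a overlap no peak, since the peaks lie downstream of them. Each runs from 250 bases before the annotated start to 50 bases from it onward, read 5′ to 3′ on the gene's strand from mm9: Hist4h4 at chr6:136752851-136753150 on the minus strand, Hist1h1c at chr13:23830426-23830725 on the plus strand and Hist3h2a at chr11:58767937-58768236 on the plus strand. Capitals mark, on either strand, the H4 string GGTCCG, the CCAAT box, the octamer ATGCAAAT, the H1 string AAACACA and TTAGGG, the telomere repeat unit; TATAAA was searched as well.
Hist4h4: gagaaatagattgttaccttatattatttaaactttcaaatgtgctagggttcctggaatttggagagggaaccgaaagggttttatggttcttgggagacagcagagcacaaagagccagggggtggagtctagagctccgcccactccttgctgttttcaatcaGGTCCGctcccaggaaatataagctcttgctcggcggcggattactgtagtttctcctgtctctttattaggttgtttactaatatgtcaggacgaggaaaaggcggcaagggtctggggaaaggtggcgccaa
Hist1h1c: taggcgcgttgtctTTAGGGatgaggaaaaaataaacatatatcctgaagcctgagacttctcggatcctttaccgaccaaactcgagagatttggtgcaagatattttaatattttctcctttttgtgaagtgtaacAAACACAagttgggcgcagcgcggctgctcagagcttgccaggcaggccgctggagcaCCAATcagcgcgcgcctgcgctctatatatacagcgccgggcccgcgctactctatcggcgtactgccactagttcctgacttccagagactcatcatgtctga
Hist3h2a: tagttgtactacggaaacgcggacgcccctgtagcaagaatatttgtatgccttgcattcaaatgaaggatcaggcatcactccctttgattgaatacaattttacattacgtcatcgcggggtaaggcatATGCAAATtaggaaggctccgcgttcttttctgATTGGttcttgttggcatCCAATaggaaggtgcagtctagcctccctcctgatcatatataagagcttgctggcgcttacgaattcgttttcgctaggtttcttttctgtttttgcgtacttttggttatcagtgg
Hist4h4 held the H4 string alone. Hist1h1c held the CCAAT box, the H1 string and the telomere repeat unit, and Hist3h2a held the octamer and a CCAAT box on each strand.

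SIN3A peaks were spread unevenly over the histone types. H4 genes had a SIN3A peak at 9 of 13 without spike-in, 8 of 13 with it, 6 in both preparations and 11 in at least 1. H1 genes had one at 3 of 6 without and 2 of 6 with spike-in, the latter 2 (Hist1h1c and Hist1h1e) in both. H3 genes had one at 4 of 11 in each preparation and at 5 in at least 1. H2A genes had one at 4 of 19 without and 0 of 19 with spike-in, and H2B genes at 1 and 2 of 18, so the 37 H2A and H2B genes had no gene with a peak in both preparations. The 11 of 13 H4 genes (84.6%) stand beside 15 of the 54 other histone genes (27.8%) and 42.1% of all genes. The H4 shares (69.2%, 61.5% and 84.6%) lay above those of all genes. The H1 shares (50%, 33.3% and 50%) rest on 6 genes and lay near them. The H2A and H2B shares lay below. Of the 11 H2A and H2B genes with at least 80% unique start sequence, 5 had a peak in either preparation, beside 46.7% of all such genes. Among these 5, Hist2h2ab, Hist2h2ac and Hist2h2be were counted through a single peak. With each peak given only to its nearest histone start, 2 of 6 H2A and 1 of 5 H2B such genes had one. In both preparations 0 of the 11 had one, against 31.4% of all such genes. These differences by type were not tested.

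**Figure D3:**
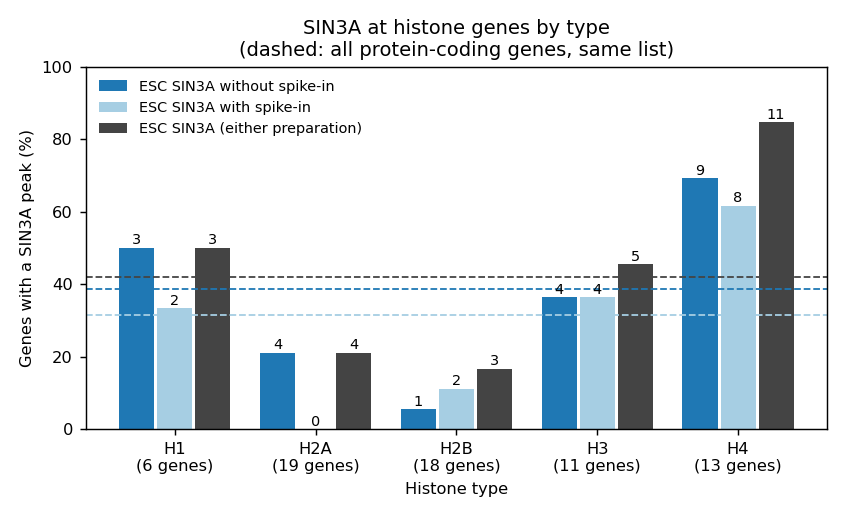
Percent of histone genes of each type with a SIN3A peak within 1 kb of the start, without spike-in (dark blue), with spike-in (light blue) and in either preparation (grey), with the number of genes above each bar. Dashed lines give the percent of all protein-coding genes in the same count (38.7%, 31.5% and 42.1%), and the H4 bars stand farthest above them. The H1 bars, 3, 2 and 3 of 6 genes, lie near them.

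Some peaks counted for several genes, because histone starts lie close together. A single peak of SIN3A without spike-in (chr3:96024632-96024780, value 12.8) counted for Hist2h2ac, Hist2h2be and Hist2h2ab. Another (chr3:96049170-96049313, value 7.40) counted for Hist2h2aa1 and Hist2h3c1. The peak upstream of Hist1h4a counted for Hist1h3a at 991 bp without and 904 bp with spike-in, and a peak with spike-in of value 4.25 at their divergent starts counted for Hist1h2bh and Hist1h3f. The start of Gm17658, which is not a histone gene by its symbol, lies 136 bp from that of Hist1h4d. The Hist1h4d peak of SIN3A without spike-in therefore cannot be assigned to either gene. When each peak was given only to the histone gene with the nearest start, a count added after the data were seen, the genes with a peak in at least 1 preparation became 3 H2A, 2 H2B and 3 H3, and the 3 H1 and 11 H4 genes stayed as they were.

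The highest SIN3A values, each counted at the nearest histone start, belonged to H4 genes in both preparations. Without spike-in Hist4h4 had a value of 28.9 in a peak of 721 bp, at the percentile of 94.8 among 10328 start-site peaks. Hist1h4c and Hist1h4a followed with 16.7 each and Hist1h4k with 16.3. With spike-in Hist1h4a led with 30.4, at the percentile of 97.6 among 7986 start-site peaks, and Hist4h4 (15.2), Hist1h4k (14.7) and Hist1h4c (12.3) came next. The same 4 genes thus held the first 4 places in each list, in different orders. Not every H4 gene stood high: Hist1h4f had 5.80 without spike-in, the lowest value of a histone gene in that list, and 7.86 with it.

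SIN3A peaks at histone genes as a whole spanned most of the range of start-site peaks. Without spike-in their median value was 10.1 (18 peaks, 5.80 to 28.9) against 12.3 over all start-site peaks, and 12 of 18 lay below that median. With spike-in their median was 8.73 (16 peaks, 3.78 to 30.4) against 8.75, with 8 of 16 below. The peaks at linker histone genes lay below these start-site medians. Hist1h1c had 2 peaks without spike-in (8.87 and 6.39) and 3 with it (3.78, 7.86 and 6.85). Hist1h1e had 9.55 and 6.82, and Hist1h1a had 8.28 without spike-in and no peak with it. Low values were not particular to H1. Hist2h2aa1 (7.40), Hist3h2a (7.44) and Hist1h4f (5.80) without spike-in, and Hist1h2bh (4.25) and Hist1h3b (5.86) with it, lay below the medians as well. Hist1h1c was the only histone gene with more than 1 SIN3A peak in a list.

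SIN3A peaks at H4 genes were centred on the start. Their midpoints lay from −165 to 143 bp of it without spike-in (median 10 bp, 9 peaks) and from −252 to 256 bp with spike-in (median 23.5 bp, 8 peaks), where positive is downstream. At H1 genes the midpoints reached 750 and 825 bp downstream, both at Hist1h1c. Of all SIN3A peaks at histone genes, each placed at its nearest histone start, 16 of 18 without and 14 of 16 with spike-in lay within 300 bp.

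**Figure D4:**
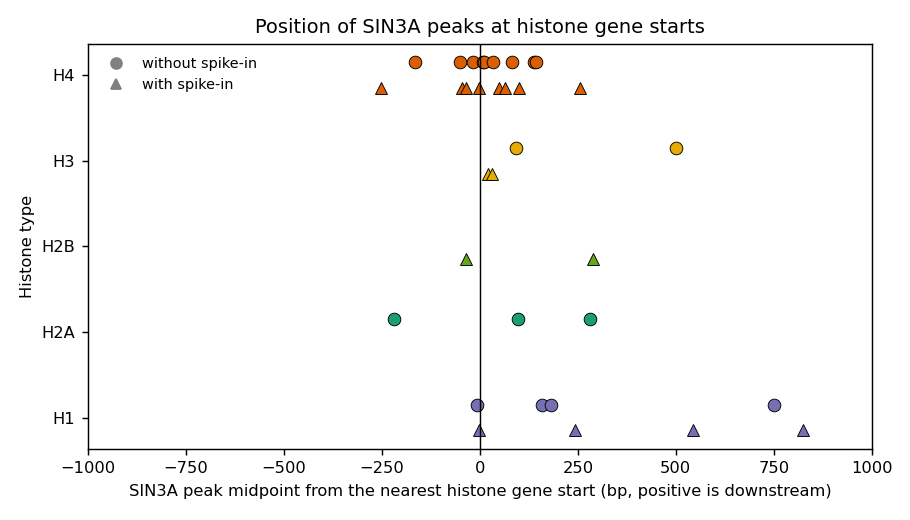
Distance in bp from the nearest histone gene start to the midpoint of each SIN3A peak (horizontal axis, positive is downstream), by histone type, without (circles) and with spike-in (triangles). All H4 peaks lie between −252 and 256 bp, and the points beyond 300 bp belong to the H1 gene Hist1h1c and the H3 gene Hist1h3f.

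The letters GGTCCG, the core of the H4 promoter element that HINFP is known to bind, were found in 12 of 13 H4 promoters (250 bases before to 50 bases from the start onward, both strands), in 15 of 67 histone promoters (22.4%) and in 9.78% of all promoters. In all 12 they lay on the gene's strand, with the first base 84 bp upstream to 6 bp downstream of the annotated start. No match was found at Hist1h4a, whose SIN3A peaks lay upstream of its annotated start. The 12 stretches are shown from mm9, each with 20 bases before the string and 4 after it, 5′ to 3′ on the gene's strand with GGTCCG in capitals and its coordinates beside the name, because H4 genes held 9 of 18 and 8 of 16 SIN3A peaks. They were chosen after the values were seen.
Hist2h4 (chr3:96067297-96067302, minus strand): gcgctttcagttttcaatctGGTCCGatcc
Hist4h4 (chr6:136752979-136752984, minus strand): ctccttgctgttttcaatcaGGTCCGctcc
Hist1h4j (chr13:21826885-21826890, plus strand): tccctgcaggttctcatttcGGTCCGcccg
Hist1h4k (chr13:21842449-21842454, minus strand): tccctgcaggttctcatttcGGTCCGcccg
Hist1h4m (chr13:21903568-21903573, plus strand): tgagctcctgttttcactccGGTCCGcaag
Hist1h4n (chr13:21924107-21924112, minus strand): tgagctcctgttttcactccGGTCCGcaag
Hist1h4i (chr13:22133272-22133277, minus strand): gacgtttctgttttcactccGGTCCGcaag
Hist1h4h (chr13:23622908-23622913, plus strand): ggggtttcagtcttcaatcaGGTCCGaaaa
Hist1h4f (chr13:23643578-23643583, minus strand): gccttttcagtcctctaaaaGGTCCGcatt
Hist1h4d (chr13:23673390-23673395, plus strand): tcccttcaggttttcaaacaGGTCCGcatt
Hist1h4c (chr13:23790368-23790373, minus strand): aacgctctagttttcaaccaGGTCCGcaga
Hist1h4b (chr13:23848812-23848817, plus strand): ccacttgaagttctcaaccaGGTCCGataa
The 12 stretches held 10 distinct sequences, since Hist1h4j and Hist1h4k are alike and so are Hist1h4m and Hist1h4n, and 4 of the 20 positions before the string were the same in all 12.

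GGTCCG lay inside the SIN3A peak at 6 of the 8 H4 genes with both a match and a peak without spike-in, and at 4 of 7 with spike-in. Among histone genes, 12 of the 15 with the string had a SIN3A peak in at least 1 preparation, against 14 of the 52 without it. The 15 genes are 12 H4, 2 H3 and 1 H2B, so this split largely repeats that between H4 and the other types. It is no separate result on the string. Among all promoters these shares were 69.7% with the string and 39.1% without it. Promoters with GGTCCG were also richer in GC (median 64% against 54%), and the part of base composition in that difference was not tested. The match is a description of letters and not a measured HINFP site.

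The other promoter strings differed in frequency between the histone types. CCAAT was found in 57 of 67 histone promoters (85.1%, all promoters 37.9%), among them all 19 H2A and all 18 H2B promoters but 4 of 13 H4 promoters. TATAAA was found in 38 (56.7%, all promoters 13.4%), and the octamer ATGCAAAT in 7 H2A and 8 H2B promoters (22.4% of 67, all promoters 1.73%). AAACACA was found in 5 of 6 H1 promoters and 5 others (14.9%, all promoters 6.42%). The telomere repeat unit TTAGGG was found in 4 of 67 (5.97%, all promoters 10.3%).

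H2A and H2B genes are mostly arranged as divergent pairs that share 1 promoter. There were 12 such pairs, with starts 168 to 306 bp apart (median 228.5 bp). A single pair, Hist2h2ac and Hist2h2be, had a SIN3A peak, in the preparation without spike-in, and no pair had a peak in the MBD3, CHD4 or ZFP296 lists. The shared promoter of Hist1h2ae and Hist1h2bg is shown as an example without any peak, from 50 bases beyond one start to 50 bases beyond the other at chr13:23663040-23663314, read on the plus strand of mm9, with the CCAAT box, the octamer and the letters TATAAA of either strand in capitals. It is the shortest of the shared promoters in which all 3 strings were found, chosen after the values were seen.
Hist1h2ae and Hist1h2bg: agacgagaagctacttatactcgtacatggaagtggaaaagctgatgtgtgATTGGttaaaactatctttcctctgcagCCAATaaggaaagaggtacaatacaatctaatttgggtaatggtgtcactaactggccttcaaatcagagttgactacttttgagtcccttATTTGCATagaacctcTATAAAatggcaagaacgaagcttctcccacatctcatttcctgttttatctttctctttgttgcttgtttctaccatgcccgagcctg

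CpG content was compared between promoters with and without a SIN3A peak. Over all promoters, those with a SIN3A peak in at least 1 preparation had a median observed over expected CpG of 0.807 and those without 0.270. Over histone promoters the medians were 0.643 with and 0.803 without a SIN3A peak. The histone promoters had a median CpG ratio of 0.690 and a median GC content of 46%, against 0.534 and 55% over all promoters. H4 promoters had the lowest median CpG ratio of the 5 types (0.641) and H1 promoters the highest (0.791). By type, the median was lower with a SIN3A peak than without for H2B (0.664 and 0.809), H3 (0.525 and 0.789) and H4 (0.628 and 0.813), and higher for H1 (1.00 and 0.649) and H2A (0.813 and 0.744), with 2 to 15 genes on each side. The histone genes with a SIN3A peak had a median of 88.3% unique 43-base words within 1 kb of the start and those without 69.1%, and the 2 H4 genes without one had 5.92% and 6.53%, so few reads could be placed there. The part of this in the CpG medians was not tested.

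Histone genes exist as near-identical copies, and the authors kept only uniquely mapped reads of 43 or 75 bases, so reads from repeated stretches could not form peaks. Within 1 kb of the start, a median of 78.3% of 43-base words occurred once in the genome for histone genes, against 99.6% for all genes. With 75-base words the medians were 83.4% and 100%. At least 80% of 43-base words were unique at 31 of 67 histone starts and at 19912 of 22367 starts (89.0%). At 6 genes (Hist1h2bq, Hist1h2ao, Hist1h4m, Hist1h4n, Hist1h2ap and Hist1h2br) the share was below 20%, and none of them had a peak in any list.

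**Figure D5:**
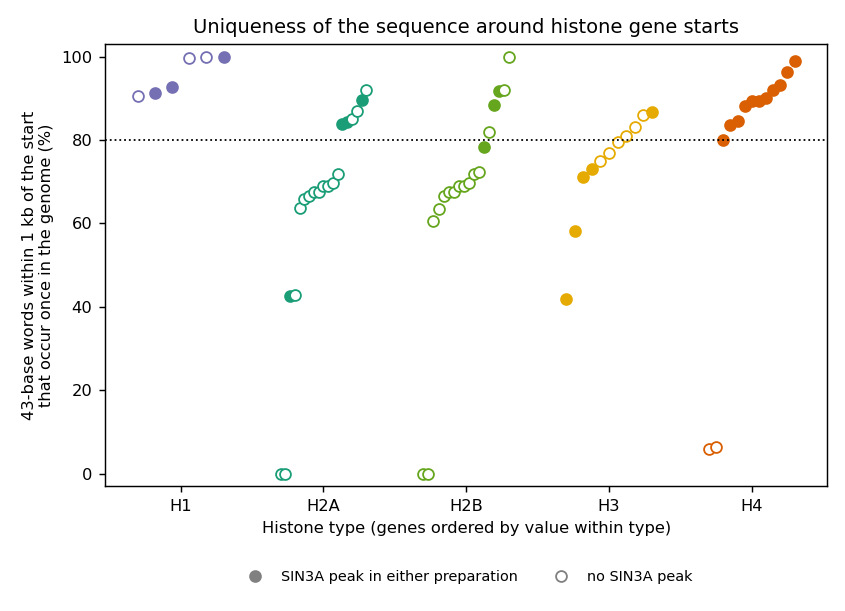
Percent of 43-base words within 1 kb of the start that occur once in the genome (vertical axis) for each histone gene, by type, with genes ordered by value within a type. Filled circles had a SIN3A peak in either preparation and open circles had none, and the dotted line marks 80%. All 10 H4 genes above the line are filled, and the 2 H4 genes without a peak lie below 10%.

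Restricting the counts to the 31 histone genes with a start of at least 80% unique words, a choice made after the data were seen, raised the SIN3A shares to or above those of all genes in 3 of 4 counts and left the CHD4 shares below them. SIN3A then had a peak at 16 of 31 genes without spike-in (51.6%) against 43% of all genes with such starts, at 11 with spike-in (35.5%) against 35.1%, at 8 in both (25.8%) against 31.4%, and at 19 in either (61.3%) against 46.7%. With each peak given only to its nearest histone start these SIN3A counts were lower, as given by type below. CHD4 had a peak at 0 of 31 genes in ESC replicate 1 against 7.92%, at 2 in replicate 2 (6.45%) against 22%, and at 1 in NPCs (3.23%) against 12.3%. No such gene had CHD4 in both ESC replicates, against 6.06%. MBD3 had a peak at 0 of 31 in ESC replicate 1 (all genes 2.07%), 1 in replicate 2 (2.72%), 0 in both (0.693%) and 0 in NPCs (2.18%), and GFP-ZFP296 at 0 (2.52%).

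By type, what remained among these genes was H4 against the others. All 10 H4 genes with at least 80% unique words had a SIN3A peak in at least 1 preparation (5 in both), against 9 of the 21 other histone genes (3 in both) and 46.7% of all genes with such starts. The others were 3 of 6 H1, 3 of 6 H2A, 2 of 5 H2B and 1 of 4 H3 genes, counts too small to order these types. With each peak given only to its nearest histone start they became 3 H1, 2 H2A, 1 H2B and 0 H3 genes, and the 10 H4 genes stayed. The 2 H4 genes without a SIN3A peak were Hist1h4m and Hist1h4n, with 5.92% to 6.53% unique words. Hist1h4a, with the highest SIN3A value with spike-in, stood at 79.9%, just below the limit. For H2A and H2B genes, 11 of 37 had at least 80% unique words and 5 of these had a peak, so most H2A and H2B genes could be judged only in part. The divergent pairs had a median of 68.2% unique words, and 2 of the 12 pairs lay above 80%: Hist2h2ac and Hist2h2be with a SIN3A peak, and Hist1h2ba and Hist1h2aa, the testis-specific pair, with none.

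Block B, the block with the most genes, had a SIN3A peak at 11 of 31 in each preparation (35.5%), near the 38.7% and 31.5% of all genes, with 14 in either and 8 in both. All 11 SIN3A peaks of that block in each list lay within 1 kb of a histone start, at 27.1 peaks per Mb against 6.08 and 4.30 per Mb over the genome. The block packs its 31 histone starts into 403 kb, and these densities were not adjusted for the density of starts. Block A had a peak at 2 of 23 genes without and 3 of 23 with spike-in, all of them H4 genes (Hist1h4i, Hist1h4j and Hist1h4k). The median share of unique 43-base words was 68.9% over block A and 86% over block B, with at least 80% at 5 of 23 and 19 of 31 genes, and its part in this difference was not tested. In the Hist2 cluster 6 of 9 genes (66.7%) had a peak without spike-in, from 3 distinct peaks, and 0 of 9 with it. Hist4h4 had a peak in both, each of the Hist3 genes in 1, and Hist1h2al in none.

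CHD4 and ZFP296 peaks did occur inside the span of Hist1 block A, but away from its histone genes. The block holds a stretch of 201.9 kb without a histone start, between Hist1h2br and Hist1h2ah, with the starts of Zfp184, Pom121l2 and Prss16. All 10 CHD4 peaks of the block in ESC replicate 1, all 23 in replicate 2, all 19 in NPCs and all 6 GFP-ZFP296 peaks lay in that stretch. At the density of each list over the genome, the stretch would hold 0.882, 2.26, 1.52 and 0.234 peaks. None lay within 1 kb of a histone start, and the nearest CHD4 peak of the 3 lists was 3.14 kb away. The block spans 327 kb in all, and the genome densities of these lists are 4.40, 11.3, 7.62 and 1.16 peaks per Mb. Few peaks would therefore fall in the rest of the block, where its histone starts lie. The histone starts of the block also have a median of 68.9% unique 43-base words. The lack of these peaks in the rest of the block was not tested. Peaks in the stretch were not particular to CHD4 and ZFP296. MBD3 had 1 and 2 there in the ESC replicates (0.176 and 0.569 at genome density) and 0 in NPCs (0.173). SIN3A had 2 without and 3 with spike-in (1.22 and 0.860 at genome density).

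Block B had 0 CHD4 peaks in ESC replicate 1, 4 in replicate 2 and 1 in NPCs, and 0 GFP-ZFP296 peaks. Of the 9 non-histone genes that start inside the blocks more than 1 kb from a histone start, 8 had no peak within 1 kb in any list. They include the hemochromatosis gene Hfe and the Slc17 transporter genes. The share of all genes without a peak in any list was not computed, so 8 of 9 has no background beside it. Zfp184, a zinc finger gene, had peaks in 6 lists. The median distance from a start to the nearest peak was shorter for histone genes than for all genes in 8 of 9 lists, for example 5.70 against 17.2 kb with SIN3A without spike-in and 97.5 against 254 kb with GFP-ZFP296. It was longer with NPC MBD3 (1404 against 359 kb). A peak within 10 kb was nevertheless rarer at histone genes in all 7 lists other than SIN3A, for example 4.48% against 16.2% with CHD4 in ESC replicate 1 and 2.99% against 6.08% with GFP-ZFP296, and more frequent with SIN3A (70.1% against 45.8% without and 52.2% against 38.3% with spike-in). Histone genes of 1 block often share their nearest peak, and neither measure was adjusted for the close spacing of their starts.

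Genes that act with the clusters were counted by the same rule. Histone variant genes, which are transcribed outside S phase as well, are not members of the clusters: of 12 listed, 11 were in the annotation, and 9 of these (81.8%) had a SIN3A peak in both preparations, against 28.1% of all genes. H3f3a, a gene for the replacement variant of H3, had SIN3A values of 19.4 and 13.4 and a CHD4 peak in ESC replicate 2 (13.6), whereas H3f3b, its other gene, had no peak in any list. CHD4 had a peak at 2 of the 11 variant genes in ESC replicate 1 (18.2%, all genes 7.14%), 3 in replicate 2 (27.3%, all genes 19.8%) and 2 in NPCs (18.2%, all genes 11.1%). The H2A variant gene H2afj, the neighbour of Hist4h4, had SIN3A values of 22.5 and 9.03.

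Of 21 genes for factors that control or process histone transcripts, 17 had a SIN3A peak without spike-in (80.95%, all genes 38.7%) and 15 with it (71.4%, all genes 31.5%), all 15 in both (all genes 28.1%). Slbp, whose protein binds the stem-loop, had values of 33.2 and 40.5, Hinfp had 20.8 and 27.1, and Npat had 9.27 and 12.3. CHD4 had a peak at 5 of the 21 in ESC replicate 1 (23.8%, all genes 7.14%), 7 in replicate 2 (33.3%, all genes 19.8%), 4 in both (19.0%, all genes 5.46%) and 6 in NPCs (28.6%, all genes 11.1%). Among them was Lsm10, a component of the U7 particle that cleaves histone transcripts (8.59, 25.1 and 22.03 in these lists). Pou2f1, the gene for OCT1, was the only factor gene with MBD3 peaks (11.5 in ESC replicate 2, where 2.45% of all genes had one, and 9.74 in NPCs, where 1.95% had one). Coil, the coilin gene, was the only one with a GFP-ZFP296 peak (12.3), that is, 1 of 21 (4.76%) where 2.34% of all genes had one. These single genes are too few to set apart from those shares. CHD4 and SIN3A peaks were thus counted at larger shares of the factor and variant genes than of the histone genes in each of their lists, and this was not tested.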

How the data were processed

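The series holds 36 samples in 34 groups by their labels. The 9 peak lists given were analysed, and 27 samples were not analysed here. Per the study's methods, reads of 43 or 75 bases were mapped to mm9 with BWA allowing 1 mismatch, uniquely mapped reads were kept, duplicates were removed, and peaks were called per sample with MACS 2.0 against input of the same cell line. The deposited values are the authors' −log10 significances; whether of p or q is not given in the sources used here. Per the peak names, reads were equalised to 17000000 in 7 lists, and the SIN3A names omit this. Depth is unknown for both SIN3A lists. The methods describe the GFP-ZFP296 line as made in KH2 ESCs, while the label says R1.

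Starts were taken from GENCODE vM1 on NCBIM37, the build of the lists (0 peaks lay beyond a chromosome end). Percentiles rank a value among the peaks within 1 kb of any protein-coding start. Word uniqueness and promoter letters were computed from the genome on both strands (Python 3.11.15, numpy 2.4.6, pyfaidx 0.9.0.4), and the counting was tested on simulated peaks. Genes, lists and settings were chosen with earlier results of these data known. The text names members with an MBD3 peak in both ESC replicates, a GFP-ZFP296 peak or an NPC MBD3 peak (none had one), the 3 of highest value in each other list, and the 10 with peaks in most lists; other members were named after their values were seen. Alternatives varied the window, the value threshold, list length, the lists required and the genes counted.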

Additional observations from a re-analysis of the deposited data

How the results depend on the processing

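Of 69 alternative counts 42 were 0 beside a main count of 0, which few settings could move. Where the main count was above 0, 15 of 23 stayed within 1.5 times it (SIN3A 9 of 13, NPC CHD4 6 of 10). The number of histone genes with MBD3 in both ESC replicates (0) was 0 to 1 when a replicate was left out (all genes 1.87% to 2.45%). It was 1 with a peak in either list (all genes 3.68%). The number for CHD4 (0) was 0 to 2 (all genes 7.14% to 19.8%) and 2 (all genes 21.5%). Only replicate 2, the longer list for each subunit, gave these peaks. The number with SIN3A in both preparations (11, 16.4%, all genes 28.1%) was 6 with values of at least 10 (8.96%, all genes 13%). It was 1 with lists shortened to their 2304 highest peaks (1.49%, all genes 4.11%). With the spike-in preparation left out it was 21 (31.3%, all genes 38.7%), and with either 26 (38.8%, all genes 42.1%). The number with NPC CHD4 (1, all genes 11.1%) was 0 within 500 bp (all genes 8.86%) and 2 within 2 kb (all genes 13.4%). It was 2 from 1 kb upstream to 5 kb downstream (all genes 14.1%) and 0 with lists of equal length (all genes 1.24%). No paired analysis was possible because the counts come from no test. Reads are unknown for the SIN3A lists, repeated sequence limits which histone copies could carry a peak, and SIN3A preparations differ in threshold and protocol together.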
